A study of Mus musculus with 9 samples.

Results

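A set of 8 transcription regulators that T cells use to register antigen receptor signaling was followed across 9 RNA-seq libraries of mouse CD4+ T cells. They were the zinc finger factors Egr1, Egr2 and Egr3, their corepressors Nab1 and Nab2, and the orphan nuclear receptors Nr4a1, Nr4a2 and Nr4a3. The 8 genes were picked by symbol from the 55487 genes of the expression table, with earlier results of these data known, so that their levels and differences are given as a description without p-values. All 8 were among the 15536 genes that had at least 1 TPM (a relative transcript level corrected for transcript length, with a fixed sum per library) in at least 3 libraries.

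The cells came from spleens of wild-type C57BL/6 mice, females aged 6 to 7 weeks by the study's methods, and had been enriched by removing other cells, without sorting. Medium cells received no treatment, and the labels do not give their time in culture. Stimulated cells received Abs to the TCR-associated CD3 complex at 3 µg/ml and to the costimulatory receptor CD28 at 2 µg/ml (anti-CD3/CD28) for 24 h. TRAIL-treated cells received these Abs plus 10 µg/ml of TRAIL, a cytokine related to tumor necrosis factor. Each group had 3 libraries, and TRAIL alone was not analysed here. The labels do not say whether libraries came from separate mice or cultures, so that the spread between libraries may be technical.

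Egr and Nr4a genes are immediate early genes. After the TCR is engaged, ERK and calcium signals reach factors such as SRF, CREB, NFAT and MEF2 that are already present, and transcription starts within minutes without new protein. EGR proteins bind GC-rich sites, NAB1 and NAB2 bind EGR proteins and turn them into repressors, and NAB genes are themselves EGR targets. EGR2, EGR3 and the NR4A receptors are known for restraining T cells and for their part in anergy, exhaustion and regulatory T cells, and Nr4a1 (Nur77) is widely used as a reporter of TCR signal strength.

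The promoter table matched 6 of the 8 members, in 10 windows of 300 bases from 250 bases before to 50 bases after an annotated start (RefSeq, GRCm38.p6). Egr1 and Egr3 had no entry. The upstream stretches of the 3 Nr4a genes, cut where an annotated exon begins, and 1 of the 5 Egr2 windows are shown because these genes had the largest differences below or carry motifs of the factors named above. Capitals mark CGTCA on either strand (the core of the cAMP response element that CREB binds) in the Nr4a genes and a CArG box (the site of SRF) in Egr2.
Nr4a1 (chr15:101266596-101266845, plus strand): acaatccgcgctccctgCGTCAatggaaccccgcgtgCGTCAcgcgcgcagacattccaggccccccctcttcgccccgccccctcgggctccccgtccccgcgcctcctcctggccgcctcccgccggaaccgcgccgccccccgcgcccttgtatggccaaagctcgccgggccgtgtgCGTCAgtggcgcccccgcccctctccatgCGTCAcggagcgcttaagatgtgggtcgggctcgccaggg
Nr4a2 (chr2:57124004-57124253, minus strand): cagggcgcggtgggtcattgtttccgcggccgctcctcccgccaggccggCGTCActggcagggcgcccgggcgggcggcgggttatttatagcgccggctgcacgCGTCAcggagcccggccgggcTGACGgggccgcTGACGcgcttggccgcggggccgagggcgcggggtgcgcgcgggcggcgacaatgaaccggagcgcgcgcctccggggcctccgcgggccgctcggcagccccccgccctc
Nr4a3 (chr4:48045055-48045152, plus strand): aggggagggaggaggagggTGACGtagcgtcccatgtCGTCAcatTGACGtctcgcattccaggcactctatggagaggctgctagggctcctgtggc
Egr2 (chr10:67537619-67537868, plus strand): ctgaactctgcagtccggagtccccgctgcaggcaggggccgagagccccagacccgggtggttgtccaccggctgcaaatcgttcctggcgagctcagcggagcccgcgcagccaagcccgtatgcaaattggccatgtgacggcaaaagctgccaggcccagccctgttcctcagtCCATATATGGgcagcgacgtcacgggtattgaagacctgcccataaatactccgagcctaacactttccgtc

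CGTCA on either strand was found in 5 of the 6 members (Egr2, Nab1, Nr4a1, Nr4a2 and Nr4a3), in 7 of the 10 windows of members, and in 20.8% of all 32851 windows. Shares of all windows are given per window, whereas members are counted per gene, and Egr2 has 5 windows. Windows 3, 4 and 5 of Egr2 start at bases 67537619, 67537620 and 67537680, so that they overlap and hold the same CGTCA matches. The count of member windows therefore cannot be set against the share of all windows. Each Nr4a window held 4 matches, the last of them in Nr4a3 lying beyond the stretch shown, and 0.231% of all windows held at least 4. That minimum equals the count in the Nr4a windows and was used for no other motif, so nothing is read from the share. The full element TGACGTCA, which overlaps CGTCA on both strands, was in none of the 6 members and in 1.79% of windows. A CArG box was found in Egr2 only (1.63% of windows), and GGAAAA, the core that NFAT binds, was also found in Egr2 only (23.4%). A MEF2 motif was found in Nr4a2 only (3.19%), where it overlapped a match to TATAAA (13.6%). The EGR motif GCGTGGGCG was found 2 times in Nab1 and in no other member (0.612% of windows), and its variant GCGGGGGCG was found in Nab1 and Nr4a1 (2.91%). The GC box GGGCGG, which can overlap EGR motifs, was in all 6 members and in 35.7% of windows. Neither the NR4A motif AAAGGTCA (1.51%) nor the AP-1 motif TGANTCA (7.81%) was found in the 6 members. A match describes letters in these windows and does not show that a factor bound there.

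The libraries were checked against markers of T cells and of cells that negative selection should remove. The 9 T cell markers summed to 3247 to 3512 TPM in medium, 2532 to 2705 TPM in stimulated and 3215 to 3553 TPM in TRAIL-treated libraries, led over all libraries by Lat and Cd3g. In stimulated cells Cd3g averaged 299 TPM, below Lat (411 TPM) and Cd247 (397 TPM). B cell markers (9 genes, led by Ighm and Cd79a) summed to 5893 to 6490, 712 to 770 and 2979 to 3434 TPM in the same order, and Ighm alone averaged 4039 TPM in medium. Myeloid markers (14 genes, led over all libraries by Lyz2 and S100a9) summed to 2298 to 2548 TPM in medium, 75.1 to 87.8 TPM in stimulated and 1696 to 1936 TPM in TRAIL-treated libraries. Lyz2 averaged 7.48 TPM in stimulated cells, below S100a9 (19.7 TPM). All 14 were called lower in stimulated than in medium libraries and higher in TRAIL-treated than in stimulated libraries, and none was called between TRAIL-treated and medium libraries, where 6 were lower and 1 was higher at an unadjusted p under 0.05 (limma). Erythroid markers (7 genes, led over all libraries by Hba-a2 and Hba-a1) summed to 2137 to 2585, 24.8 to 39.6 and 619 to 669 TPM. Slc4a1 was listed in every stimulated library at 1e-04 TPM, the value that 57.6 to 60.1% of all genes have in a library. In stimulated cells Hba-a2 (6.01 TPM) was below Hba-a1 (9.48 TPM). Dendritic cell markers (7 genes, led over all libraries by Itgax and Siglech) summed to 55.8 to 61.1, 10.4 to 13.9 and 34.6 to 37.5 TPM. In stimulated cells Itgax and Siglech averaged 3.06 and 0.206 TPM. CD8 and NK cell markers (6 genes, led over all libraries by Cd8b1 and Cd8a) summed to 226 to 255, 122 to 133 and 85.9 to 94.3 TPM. In medium Ncr1 (40.1 TPM) was above Cd8a (39.0 TPM). RNA of other cells was thus present in all groups and differed between them. The B cell, myeloid, erythroid and dendritic sums were lowest in stimulated cells. The CD8 and NK sum was lowest with TRAIL, as were Cd8b1 and Cd8a, although the other 4 genes of that list were lowest in stimulated cells. In the dendritic list 6 of 7 genes were lowest in stimulated cells, and Zbtb46 was highest there (5.86 TPM beside 2.44 TPM in medium). In bulk RNA, fewer cells of a type and less RNA per cell cannot be told apart, and which cells carried a member's transcripts was not tested.

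**Figure D1:**
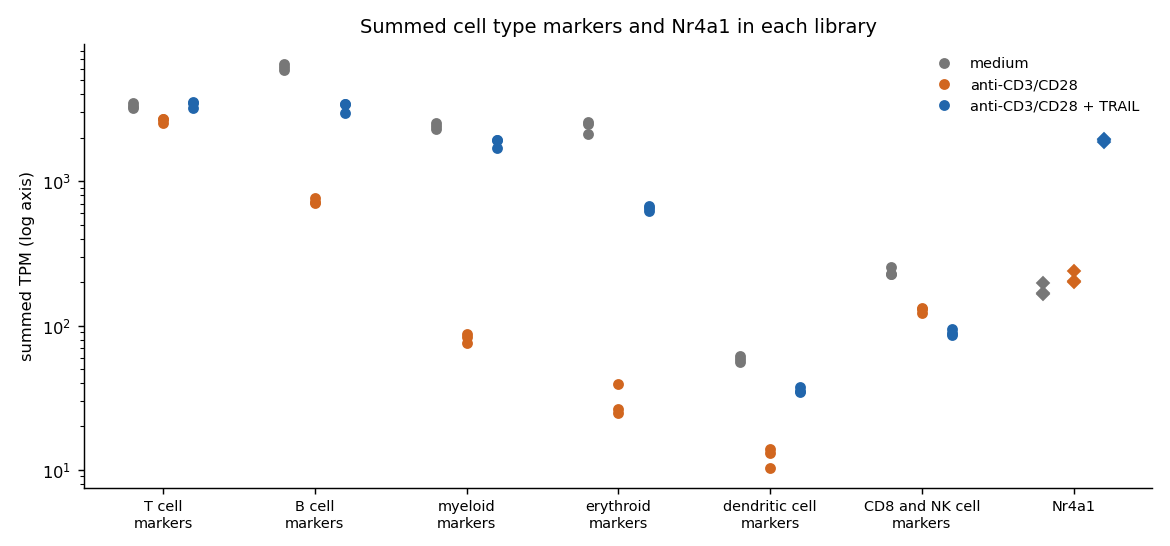
Summed TPM of each marker list and TPM of Nr4a1 (log axis) in each of the 3 libraries of medium, stimulated (anti-CD3/CD28) and TRAIL-treated (anti-CD3/CD28 + TRAIL) cells, 1 point per library. Myeloid markers stayed at or below 1936 TPM in TRAIL-treated and reached 2548 TPM in medium libraries, while Nr4a1 was between 1872 and 1966 TPM in the former and between 165 and 199 TPM in the latter.

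Of the 8 genes, 3 were called higher with Abs alone, and TRAIL-treated cells held the highest level of every EGR and NR4A gene. A gene was called when its adjusted p was under 0.05 (limma on log2(TPM + 1), Benjamini-Hochberg over all 15536 genes) and its log2 fold change was at least 1 in size. Between stimulated and medium cells, 3 of 8 members were called higher and none lower, where 31.9% of all tested genes were called (12.4% higher and 19.5% lower). Between TRAIL-treated and stimulated cells, 4 of 8 were called higher and none lower, beside 30.9% of all genes (16.6% higher and 14.3% lower). Between TRAIL-treated and medium cells, 6 of 8 were called higher and none lower, beside 4.62% of all genes (2.49% higher and 2.13% lower). Higher than both other groups by this rule were Egr1, Egr3, Nr4a1 and Nr4a2, 4 of 8 members beside 1.35% of all tested genes. The members were picked with these contrasts known, so nothing is read from their counts. The 3 comparisons share libraries, and their values are given side by side for each gene.

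**Figure D2:**
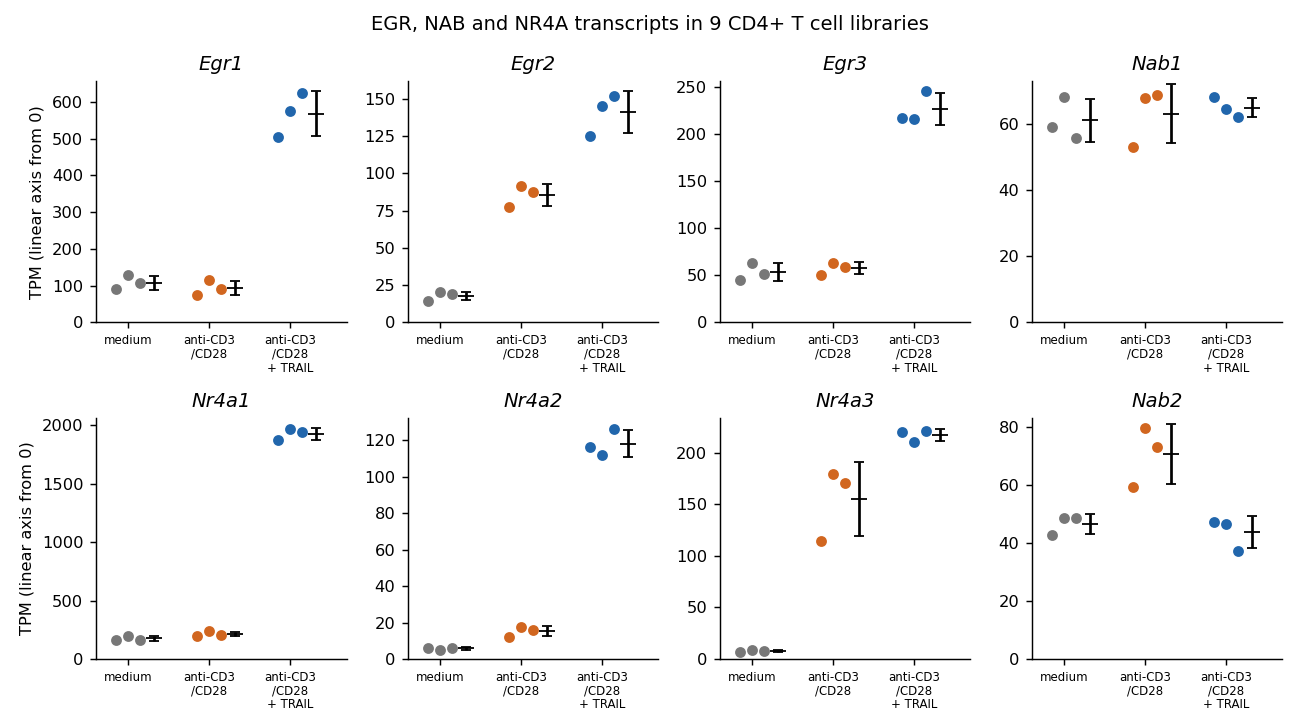
TPM of each member (linear axis from 0) in the 3 libraries of each group, with points for libraries in replicate order and bars for mean ± SD. The 3 TRAIL-treated libraries lie above all others for the EGR and NR4A genes, the 3 groups overlap for Nab1, and stimulated libraries are highest for Nab2.

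Egr1, the EGR factor that ERK signaling induces through SRF in most cell types, lies on chromosome 18 (34859823 to 34864984, plus strand, GRCm38). Its level was 89.9, 128 and 107 TPM in medium libraries 1 to 3. It was 75.3, 115 and 90.5 TPM in stimulated and 504, 576 and 624 TPM in TRAIL-treated libraries. Medium and stimulated libraries overlapped, and every TRAIL-treated library was far above both. The log2 fold change was -0.21 between stimulated and medium cells, 2.60 between TRAIL-treated and stimulated cells, and 2.39 between TRAIL-treated and medium cells (SE 0.17, n = 3 per group), and mean TPM was 6.07-fold and 5.25-fold higher with TRAIL. After 24 h of Abs alone, Egr1 thus stood at 93.6 ± 20.0 TPM (SD, n = 3) beside 108 ± 19.1 TPM in medium. The sign of that small difference turned, to a log2 value of 0.13, when libraries were scaled to their summed T cell markers. That sum was itself lower in stimulated (2532 to 2705 TPM) than in medium libraries (3247 to 3512 TPM), and Cd3g within it was called lower. This scaling, also where it is used below, thus raises stimulated values relative to both other groups.

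Egr2, which restrains T cell activation and marks anergic cells, lies on chromosome 10 (67535475 to 67542188, plus strand). It measured 14.5, 20.1 and 18.7 TPM in medium, 77.3, 91.8 and 87.5 TPM in stimulated, and 125, 146 and 152 TPM in TRAIL-treated libraries. The 3 groups formed separate steps without overlap. The log2 fold changes were 2.21, 0.71 and 2.93 in the order used for Egr1 (SE 0.13), so the larger step, 4.82-fold, separated stimulated from medium cells, and TRAIL-treated cells were 1.65-fold above stimulated cells. That last difference was 0.35 (log2, SE 0.13) when libraries were scaled to T cell markers.

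Egr3, which acts beside EGR2 in restraining T cells, lies on chromosome 14 (70077203 to 70082614, plus strand). It measured 44.8, 63.3 and 51.6 TPM in medium, 50.3, 63.0 and 59.0 TPM in stimulated, and 217, 216 and 246 TPM in TRAIL-treated libraries. As for Egr1, medium and stimulated libraries overlapped and TRAIL-treated libraries stood apart. The log2 fold changes were 0.12, 1.96 and 2.08 (SE 0.14), or 3.94-fold above stimulated and 4.25-fold above medium cells with TRAIL. The fourth family member, Egr4, averaged 0.068 TPM in medium, 1.18 TPM in stimulated and 0.944 TPM in TRAIL-treated cells.

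Summed over Egr1, Egr2 and Egr3, EGR transcripts averaged 179 ± 31.1 TPM in medium, 237 ± 33.4 TPM in stimulated and 935 ± 87.9 TPM in TRAIL-treated cells (SD, n = 3 each). The make-up of the sum differed between stimulated cells and the other groups. Egr1 made up 60.4% of it in medium, 39.3% in stimulated and 60.7% in TRAIL-treated cells. Egr2 made up 9.93%, 36.4% and 15.1%, and Egr3 made up 29.7%, 24.4% and 24.3%. Stimulated cells therefore carried EGR transcripts of which about equal parts were Egr1 and Egr2, whereas Egr1 led in both other groups.

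Neither corepressor was called in any of the 3 comparisons. Nab1 (chromosome 1, 52457294 to 52500679, minus strand) measured 59.4, 68.4 and 56.0 TPM in medium, 53.1, 68.0 and 68.9 TPM in stimulated, and 68.3, 64.7 and 62.3 TPM in TRAIL-treated libraries. All 3 groups overlapped. The log2 difference between TRAIL-treated and stimulated cells was 0.048, with a 95% interval of -0.22 to 0.32, and it took either sign in other processing.

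Nab2, the NAB gene most often described as induced with EGR factors, lies on chromosome 10 (127660918 to 127668568, minus strand). It measured 42.7, 48.7 and 48.5 TPM in medium, 59.2, 79.5 and 73.1 TPM in stimulated, and 47.2, 46.4 and 37.3 TPM in TRAIL-treated libraries. Stimulated libraries were above all others, and TRAIL-treated and medium libraries overlapped. Mean TPM was 1.51-fold higher in stimulated than in medium cells (log2 fold change 0.58, SE 0.13) and 1.62-fold higher in stimulated than in TRAIL-treated cells (log2 fold change -0.68 with TRAIL). The latter grew to -1.04 and passed the call when libraries were scaled to T cell markers. The difference between TRAIL-treated and medium cells, -0.099, turned to 0.082 with median-of-ratios scaling. Nab2 shares 1668 bases with Nemp1, 1646 with the antisense gene Gm16229 and 40 with Stat6, all on the opposite strand, and whether reads were counted by strand is not given. Nemp1 measured 10.8 to 11.0, 15.3 to 19.2 and 6.16 to 8.35 TPM in the 3 groups, Gm16229 reached at most 0.959 TPM and Stat6 was between 124 and 213 TPM.

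The NAB sum averaged 108 ± 8.10, 134 ± 18.9 and 109 ± 8.20 TPM in the 3 groups, in the same order. EGR transcripts outnumbered NAB transcripts by a ratio of 1.65 ± 0.174 in medium and 1.77 ± 0.0863 in stimulated cells, ranges that overlapped. In TRAIL-treated cells the ratio was 8.68 ± 1.48 (SD, n = 3), with every library above 7.32. These are transcript ratios, and protein levels were not measured in these data.

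Nr4a1 had the highest level of the 8 genes in every library. It lies on chromosome 15 (101254269 to 101274795, plus strand) and measured 165, 199 and 167 TPM in medium, 201, 239 and 205 TPM in stimulated, and 1872, 1966 and 1941 TPM in TRAIL-treated libraries. Stimulated libraries lay above medium libraries without overlap, and TRAIL-treated libraries lay in a range of their own. The log2 fold changes were 0.28, 3.16 and 3.44 (SE 0.11), and mean TPM with TRAIL was 8.97-fold above stimulated and 10.9-fold above medium cells. Scaled to T cell markers, the 3 log2 differences were 0.62, 2.80 and 3.42. The sum of each list of other cells' markers was lower in every TRAIL-treated than in every medium library, but not each marker was. Of the 14 myeloid markers, 12 had a lower mean with TRAIL than in medium, among them Lyz2 (545 and 346 TPM) and S100a9 (432 and 245 TPM), and 2 had a higher mean, C1qa (210 and 217 TPM) and Cd14 (12.5 and 18.9 TPM). The part of other cells in the level of Nr4a1 was not tested.

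Nr4a2 (chromosome 2, 57106830 to 57124003, minus strand) started from the lowest level, with 6.09, 5.16 and 6.22 TPM in medium libraries. It measured 12.3, 17.7 and 15.8 TPM in stimulated and 116, 112 and 126 TPM in TRAIL-treated libraries. No 2 groups overlapped. The log2 fold changes were 1.25, 2.88 and 4.13 (SE 0.14), or 2.63-fold with Abs alone and a further 7.73-fold with TRAIL. The first of these fell below the size needed for a call, to 0.90, with a pseudocount of 5 TPM in place of 1 TPM.

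Nr4a3 (chromosome 4, 48045153 to 48086447, plus strand) had the largest difference of the family between stimulated and medium cells. It measured 6.62, 8.42 and 7.71 TPM in medium, 115, 180 and 171 TPM in stimulated, and 220, 210 and 221 TPM in TRAIL-treated libraries. Mean TPM was 20.5-fold higher with Abs alone (log2 fold change 4.16, SE 0.16) and 28.6-fold higher with Abs and TRAIL (4.67). TRAIL-treated and stimulated cells differed little, by 1.40-fold (log2 fold change 0.51), although their libraries did not overlap. Without stimulated replicate 1 that difference was 0.31, and scaled to T cell markers it was 0.15 with an SE of 0.14.

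The NR4A sum averaged 190 ± 19.1 TPM in medium, 385 ± 54.7 TPM in stimulated and 2262 ± 46.4 TPM in TRAIL-treated cells, 11.9-fold above medium. Nr4a1 made up 92.9% of it in medium, 56.1% in stimulated and 85.2% in TRAIL-treated cells. Nr4a3 made up 3.98%, 39.9% and 9.61%, and Nr4a2 made up 3.10%, 3.95% and 5.23%. In both families stimulated cells thus had a larger share of one member, Egr2 or Nr4a3, and a smaller share of the leading member, Egr1 or Nr4a1, than the other groups.

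**Figure D3:**
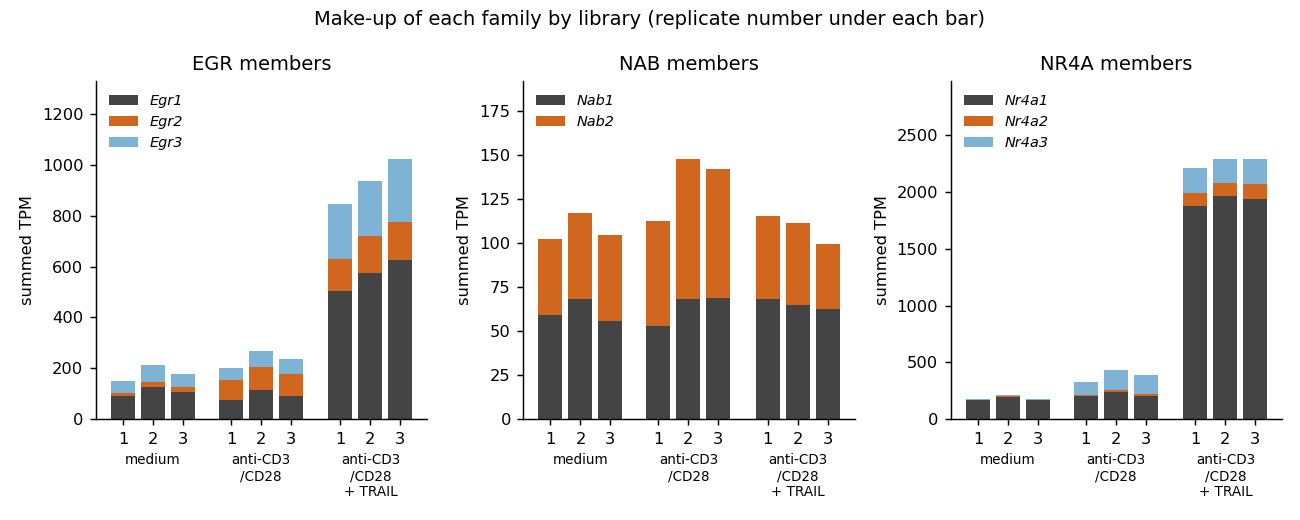
Summed TPM of the EGR, NAB and NR4A members in each library (linear axes from 0), stacked by gene, with the replicate number under each bar. NR4A sums were 2208 to 2288 TPM in TRAIL-treated libraries, most of it Nr4a1, and Egr2 and Nr4a3 took their largest shares in stimulated libraries.

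The members fell into 4 patterns. Egr1, Egr3 and Nr4a1 were not called between medium and stimulated cells and were high with TRAIL. Egr2 and Nr4a3 took most of their step with Abs alone, and Nr4a2 took a step at each stage. Nab1 and Nab2 were called in no comparison, but they differed in that Nab1 overlapped in all of them, whereas Nab2 was highest in stimulated libraries. By non-overlap, 5 of 8 members (Egr2, Nab2, Nr4a1, Nr4a2 and Nr4a3) were higher in stimulated than in medium libraries, where 72.6% of all tested genes did not overlap (29.9% higher and 42.6% lower). Against stimulated libraries, 6 members were higher with TRAIL and Nab2 was lower, beside 70.4% of all genes (35.5% higher and 34.9% lower). Against medium libraries, 6 were higher with TRAIL, beside 50.6% of all genes (12.4% higher and 38.2% lower). With 3 libraries against 3, an exact permutation test of a single gene cannot give a two-sided p below 0.1.

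**Figure D4:**
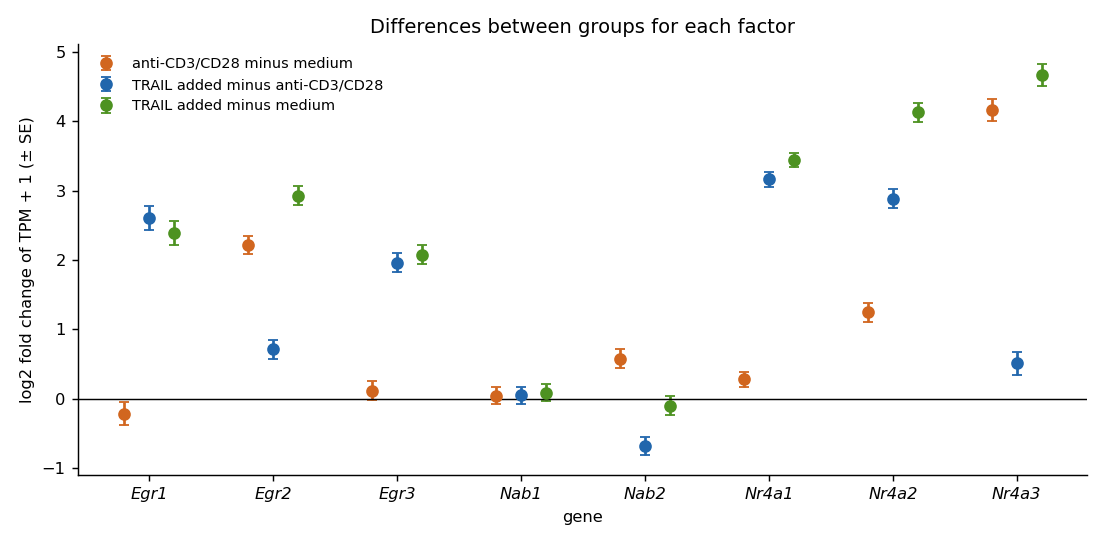
Log2 fold change of TPM + 1 for each member in the 3 comparisons (points, with bars for ± SE from the limma fit of 9 libraries). Egr1, Egr3 and Nr4a1 lie near 0 between stimulated and medium cells and between 1.96 and 3.16 between TRAIL-treated and stimulated cells, while Egr2 and Nr4a3 show the reverse order.

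TPM is corrected for length, so levels were ordered across the 8 genes. The order is approximate, because the TPM program and the strand setting are not given and Nab2 shares bases with other genes. In medium the order of mean TPM was Nr4a1, Egr1, Nab1, Egr3, Nab2, Egr2, Nr4a3 and Nr4a2, and the ranges of Nab1 and Egr3 and of Egr3 and Nab2 overlapped. In stimulated cells it was Nr4a1, Nr4a3, Egr1, Egr2, Nab2, Nab1, Egr3 and Nr4a2, and each neighbour from Nr4a3 to Egr3 overlapped the next. With TRAIL it was Nr4a1, Egr1, Egr3, Nr4a3, Egr2, Nr4a2, Nab1 and Nab2, and only the pairs Egr3 and Nr4a3, and Egr2 and Nr4a2, overlapped. Stimulated replicate 1 was the lowest of its group for 8 of 8 members and for 58.5% of all tested genes. Stimulated replicate 2 was the highest for 7 of 8 members and 44.2% of all genes. Medium replicate 1 was the lowest of its group for 6 of 8 members and 39.5% of all genes, and medium replicate 2 was the highest for 7 of 8 members and 49% of all genes. TRAIL-treated replicate 3 was the highest of its group for 5 of 8 members while it was the lowest for 61.4% of all genes, and TRAIL-treated replicate 1 was the highest for 2 members and for 54.3% of all genes.

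Other immediate early genes shared part of the pattern. Of 20 tested, 14 were called higher and none lower (1 lower at an unadjusted p under 0.05, limma) in TRAIL-treated than in stimulated cells, with a median log2 fold change of 1.73 beside 0.011 over all tested genes. Against medium, 13 rose and none fell (median 1.16, all genes -0.18), and 9 were called higher than both other groups. Between stimulated and medium cells 6 rose and 7 fell (median -0.29, all genes -0.15). The AP-1 genes Fos and Fosb were among those that fell, from 322 to 6.97 TPM and from 175 to 1.17 TPM, and stood at 478 and 343 TPM with TRAIL. Dusp1, a phosphatase of MAP kinases, followed the same course with 180, 18.0 and 367 TPM. The summed B cell and myeloid markers were also lowest in stimulated cells (712 to 770 and 75.1 to 87.8 TPM), and their part in these changes was not tested. Unlike these, Egr1, Egr3 and Nr4a1 were not lower in stimulated than in medium cells by the call. That course, not called with Abs alone and called higher with TRAIL than both other groups, was also that of 4 genes of the list, Jun (193, 153 and 502 TPM), Junb (1069, 557 and 2192 TPM), Tnfaip3 (92.5, 115 and 715 TPM) and Klf6 (103, 86.7 and 438 TPM).
Atf3, Fosl2 and Dusp5 took their larger step with Abs alone, and Fosl2 and Dusp5 were also called higher with TRAIL than in stimulated cells. Their means were 2.07, 79.1 and 88.6 TPM for Atf3, 6.52, 86.6 and 203 TPM for Fosl2 and 28.9, 242 and 536 TPM for Dusp5 in the order used above.

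Genes that rise later in activation moved the other way. Of 14, 11 were called higher and none lower with Abs alone (median 2.19; 3 were lower at an adjusted p under 0.05 but by less than the fold needed), while 10 fell and 1 rose in TRAIL-treated against stimulated cells (median -1.86). Il2ra, the high-affinity chain of the IL-2 receptor, went from 24.0 to 868 TPM with Abs and stood at 23.2 TPM with TRAIL. Tnfrsf4 (OX40) measured 50.2, 1074 and 85.4 TPM, and Tnfrsf9 (4-1BB) measured 23.8, 337 and 23.5 TPM. The log2 fold change with TRAIL against stimulated cells was -5.16 for Il2ra (SE 0.13, limma adjusted p = 7.75e-10). The gene that rose was Nfkbid, which encodes an atypical NF-κB inhibitor, with 84.8, 60.3 and 309 TPM. Against medium, 3 of the 14 were called higher with TRAIL (Nfkbid, Irf4 and Icos) and none lower, with 2 lower at an unadjusted p under 0.05 (limma).

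Genes linked in T cells to EGR2 and EGR3 went in both directions. Of 22, 20 could be tested, the others (Rnf128 and Ccl1) being too low. With Abs alone 9 rose and 6 fell, and with TRAIL against stimulated cells 7 rose and 9 fell, with medians of -0.060 and -0.070. Those that rose with Abs and fell with TRAIL included Lag3, an inhibitory receptor (13.5, 369 and 12.0 TPM), and Socs1, a brake on cytokine signaling (5.84, 123 and 12.2 TPM). Those with the opposite course included Bcl6, the factor of follicular helper cells (33.3, 6.74 and 35.3 TPM), and Dgka, a diacylglycerol kinase that limits TCR signaling (885, 234 and 918 TPM). B cell and myeloid marker sums were lowest in stimulated cells too, and their part in the course of these genes and of Tox and Ikzf2 described next was not tested. Against medium, 4 were higher with TRAIL, namely Cdkn1a, Nfil3, Tnfsf11 and Fasl, and Nrgn was lower. Tnfsf11 (RANKL) and Fasl averaged 38.1 and 33.6 TPM with TRAIL beside 8.27 and 12.7 TPM in medium and 4.28 and 10.4 TPM in stimulated cells. These were the 2 of the 20 tested genes called higher than both other groups.

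Genes linked to NR4A factors also went in both directions. Of 14 tested, 6 rose and 3 fell with Abs (median 0.27), 4 rose and 5 fell with TRAIL against stimulated cells (median -0.12), and none was called higher than both other groups. Il2ra, Lag3, Irf4 and Tigit led those that rose with Abs and fell with TRAIL, and Tigit, an inhibitory receptor, measured 16.2, 93.7 and 22.3 TPM. Tox, a factor of exhausted cells, and Ikzf2 (Helios) went the other way, with 30.4, 4.99 and 33.7 TPM for Tox and 24.2, 6.90 and 23.8 TPM for Ikzf2. Against medium, Irf4 (57.2 and 183 TPM) and Ctla4 (65.4 and 171 TPM) were higher with TRAIL and none was called lower, with 2 lower at an unadjusted p under 0.05. Il2ra, Lag3 and Irf4 are also in other lists used here.

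**Figure D5:**
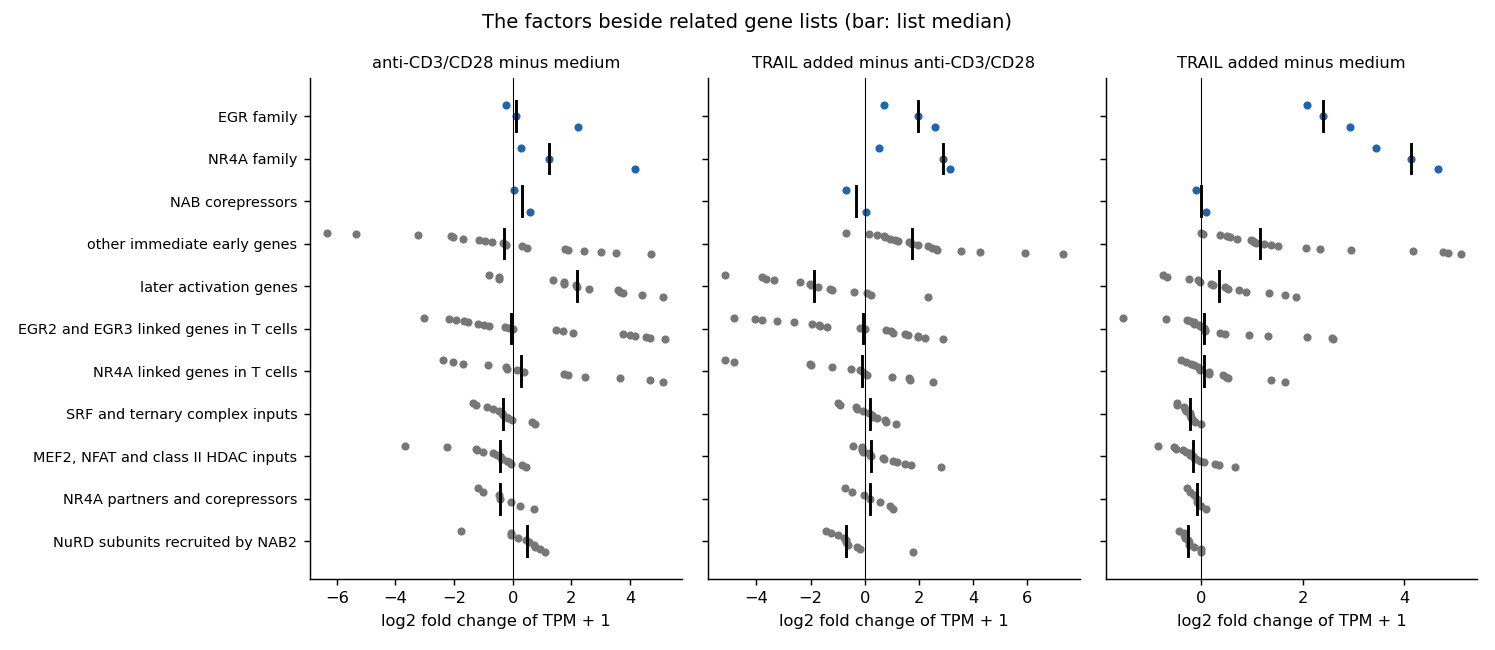
Log2 fold change of TPM + 1 for every tested gene of each list (points) with the list median (bars), in the 3 comparisons, with the members in blue. Other immediate early genes had a median of 1.73 and later activation genes one of -1.86 between TRAIL-treated and stimulated cells.

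Of the 44 tested genes in 4 lists of upstream or binding factors, none was called between TRAIL-treated and medium cells, beside 4.62% of all tested genes, a share too low to set these lists apart. At an unadjusted p under 0.05 (limma), none was higher and 4 were lower of the 12 SRF genes, 2 and 4 of the 15 MEF2, NFAT and HDAC genes, none and 1 of the 7 NR4A partners, and none and 5 of the 10 NuRD subunits. Of the 12 genes of the SRF and ternary complex group, 2 fell with Abs (Mrtfa, from 104 to 40.7 TPM, and Elk3) and 1 rose with TRAIL against stimulated cells (Mrtfa, to 91.3 TPM), with medians of -0.34 and 0.21. Of 15 MEF2, NFAT and class II HDAC genes, 5 fell with Abs and 5 rose with TRAIL against stimulated cells (medians -0.44 and 0.22). Mef2c measured 120, 8.84 and 66.6 TPM, and Ppp3ca, a catalytic subunit of calcineurin, measured 60.6, 12.0 and 41.9 TPM. Mef2c is also used by B and myeloid cells, whose summed markers were lowest in stimulated cells too, and their part in its values was not tested. Hdac5, a MEF2 repressor, measured 45.2, 19.0 and 55.0 TPM, and Mef2d measured 136, 95.2 and 217 TPM. Of 8 NR4A partners and corepressors 7 could be tested (Rxrg was too low). Only Rxra, a dimer partner of Nr4a1 and Nr4a2, was called, with 18.2, 7.35 and 16.3 TPM. Of 10 subunits of NuRD, the chromatin complex that NAB2 recruits, Chd3 fell with Abs (332 to 98.7 TPM) and rose with TRAIL (334 TPM). Rbbp7 rose with Abs and fell with TRAIL (125, 269 and 101 TPM), and Mbd3 fell with TRAIL (157 to 65.9 TPM), with list medians of 0.50 and -0.69.

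Single genes with the closest profiles were found by the root mean square difference of centred log2(TPM + 1) over the 9 libraries, among 10456 genes with a group mean of at least 10 TPM. The closest to Nr4a1 was Vps37b, with 103, 119 and 1004 TPM and a difference of 0.096, before Zfand2a and Gm17024. Closest to Egr1 were Sik1 (47.3, 43.5 and 297 TPM, difference 0.15), Thbs1 and Rrad, and closest to Egr3 were Ets2 (29.4, 34.1 and 132 TPM, 0.10), Phlda1 and Fam83d. Egr2 was nearest to Dusp4 (0.23), Hsph1 and Csrnp1. Nr4a3 was nearest to Atf3 (0.31), Fosl2 and Dusp5, and Nr4a2 to Ramp3 (0.33), Mir212 and Nr4a1. Nab2 was nearest to Sfmbt1, Pfkfb3 and Macroh2a1, and Nab1 to Clint1, Wdr70 and Ripk2. The nearest genes of Egr2, Nr4a2 and Nr4a3 were less close, by this measure, than those of Egr1, Egr3 and Nr4a1.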

How the data were processed

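RNA of 9 CD4+ T cell libraries was sequenced, and each library's group and replicate number came from its title. For 55487 genes the authors deposited TPM, relative levels from which neither depth nor counting error can be known. The submitters' processing notes name Trimmomatic 0.36, HISAT2 2.1.0, SAMtools 1.2, StringTie 2.1.2 and DESeq2. They list GRCh38, whereas the paper names GRCm38. GENCODE M21 holds 55141 of the genes (GRCm38), 99.3% of them at an identical locus, among them all 8 members. The program that made the TPM values, the strand setting and the annotation release are not given in the sources used here.

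Log2(TPM + 1) was fitted in R 4.3.3 with limma 3.58.1 (lmFit, eBayes with a trend) for the 15536 genes reaching 1 TPM in 3 or more libraries, with all 9 libraries fitted together and no replicate block. A fold change on this scale understates that of low genes. The test was tested on 5 simulated data sets of 15536 genes for TRAIL-treated against stimulated cells. It recovered 89 to 98 of 100 genes changed by a log2 value of 1.5 and 96 to 100 of 100 changed by 2, with at most 4 false calls. Only 200 genes were changed, all with a stimulated mean of at least 10 TPM, whereas 30.9% of genes were called in the data. The noise was drawn independently for each library and gene. These figures therefore do not extend to lower genes or to libraries whose errors are shared. Lists are described by counts and medians without a set test. Members, lists and tests were chosen with earlier results of these data known, so p-values of list genes are no independent support.

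The genes named are the members, up to 4 called genes per direction, list and comparison with the largest change and a group mean of at least 10 TPM, the 3 genes most like each member, and the 2 highest markers of each list. Gm16229, Nemp1, Stat6, Egr4, the untested list genes and the markers Slc4a1, C1qa, Cd14 and Zbtb46, and Jun, Junb, Tnfaip3 and Klf6, were named after their values were seen. Figures used matplotlib 3.10.9 and pandas 2.3.3 under Python 3.11.15. Proteins were not analysed here, and one marker gene that enters its list's sum is not reported by itself. Alternatives varied the pseudocount, filter, scaling, variance trend, libraries in the fit and replicate block, and left out each library in turn. Scaling to summed T cell markers was added after seeing the data.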

Additional observations from a re-analysis of the deposited data

How the results depend on the processing

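Of 456 member differences (24 differences under 19 alternatives), 445 kept their sign and stayed called or not called. The count of members called was 3, 4 and 6 in the 3 comparisons and stayed so when any library was left out. It was 2 between stimulated and medium cells with a pseudocount of 5, which moved Nr4a2 to 0.90, and 5 between TRAIL-treated and stimulated cells with scaling to T cell markers, which moved Nab2 to -1.04. Signs turned only for small differences. Nab1 between stimulated and medium cells was -0.023 to 0.16 with each library left out, and between TRAIL-treated and stimulated cells it was -0.072 to 0.11, or -0.31 with scaling to T cell markers. Egr1 between stimulated and medium cells was 0.13 with that scaling. Nab2 between TRAIL-treated and medium cells was 0.082 with median-of-ratios scaling, 0.061 with quantile normalization and -0.16 to 0.0082 with each library left out. The cause was not tested.

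With a pseudocount of 5, genes called fell from 4959 to 2946 (stimulated against medium), from 4800 to 2883 (TRAIL-treated against stimulated) and from 718 to 332 (TRAIL-treated against medium), the last rising to 1167 with 0.1. Called list genes ranged from 51 to 55, 50 to 57 and 19 to 25. With median-of-ratios scaling the NAB sum in medium was 99.0 TPM and the NR4A sum with TRAIL was 2366 TPM. Median-of-ratios and quantile scaling moved the median of all genes by 0.14 and 0.19 between stimulated and medium cells and by 0.16 and 0.14 between TRAIL-treated and medium cells. Of the calls, 38.8% were higher in the former comparison (47.2% and 52.1% when rescaled) and 53.9% in the latter (73.8% and 70.6%).

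With the replicate number as a block, 4960, 4802 and 714 genes were called, the members called numbered 3, 4 and 6, and no call of a member changed. Deviations of same-numbered libraries correlated from -0.469 to 0.452, and those of differently numbered libraries from -0.521 to 0.424. With 3 libraries per group, deviations from a group mean are tied to each other, so these ranges cannot show whether the numbers pair the libraries. Depth is unknown for TPM.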
